A study of Caenorhabditis elegans with 6 samples.

Results

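The genes of sperm were examined in whole young adult *C. elegans*. The members were the genes whose WormBase symbol is *msp*, *ssp* or *spe* followed by a number, together with *gsp-3* and *gsp-4*, as long as at least 3 of the 6 libraries held 10 or more of their reads. These rules gave 71 of the 46778 genes listed, of which 28 were *msp*, 12 were *ssp*, 29 were *spe* and 2 were *gsp* genes. Another 3 genes carried a fitting symbol but too few reads. The study compared wild type N2 animals with *vhl-1(ok161)* mutants (strain CB5602), whose mutated gene is the worm counterpart of the tumor suppressor VHL, to find genes that depend on it. Both strains were kept at 20 °C without starvation and were collected as age-synchronized young adults, with 3 biological replicates of each genotype. Nothing in the labels gives a treatment or the sex of the animals, and the mutants were 1 strain with 1 allele.

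Sperm of *C. elegans* have no flagellum and crawl on a pseudopod. Its cytoskeleton is built from filaments of the major sperm protein (MSP) in place of actin. MSP is also released from sperm and tells oocytes to complete meiotic maturation and the gonadal sheath to contract. Hermaphrodites make sperm during the last larval stage and then switch to oocytes, so that sperm transcripts of an adult stem from cells that are finishing or have finished development. The *msp* genes encode many nearly identical copies of MSP, the *ssp* genes encode small sperm-specific proteins related to it, and GSP-3 and GSP-4 are protein phosphatases of the PP1 class that act in sperm. The *spe* genes were named from mutants with defective spermatogenesis. Their products act in the building of spermatocytes and spermatids, in the activation of spermatids to crawling sperm, or in fertilization and the first steps of the egg after it.

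The libraries held between 52462303 and 82910026 reads assigned to genes. Levels are given as CPM, counts scaled to a common library size with the TMM factors of edgeR, and as CPM per kb of exon where genes are compared with each other. *vhl-1* itself had 6.37, 7.07 and 7.48 CPM in wild type animals and 0.0830, 0.0369 and 0.0162 CPM in the mutants. The means of 6.98 ± 0.562 and 0.0454 ± 0.0342 CPM (SD, n = 3 each) fit the labels, and the log2 fold change was -7.14 (SE 0.40, edgeR adjusted p = 0.00066). Over all 16596 genes tested, 207 (1.25%) passed an adjusted p of 0.05 in edgeR's quasi-likelihood test, 145 of them higher (0.874%) and 62 lower (0.374%) in *vhl-1* mutants. The 6 libraries also differed within a genotype, so that the spread between replicates enters every comparison below. The tissue label was checked with 9 marker genes of muscle, intestine, neurons, germline and cuticle, and 9 of 9 were at 10 or more CPM in every library.

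No difference between the genotypes was called for any sperm gene, which does not show that there was none. Of the 71 members, 0 passed the threshold in edgeR's quasi-likelihood test, where 1.25% of all genes tested did. The count was also 0 with DESeq2, where 3.54% of all genes tested passed, and 0 with limma-voom. Without adjustment, 0 of 71 had a p under 0.05, against 9.38% of all genes tested. The lowest p was that of *spe-4*, a presenilin of the membranous organelles, at 0.13 before and 0.77 after adjustment in the edgeR fit. The levels of both genotypes overlapped in 70 of the 71 genes. The exception was *spe-9*, whereas 14.4% of all genes tested had groups that did not overlap. Changes were scattered on both sides of 0, with 34 members above and 37 below, and their median log2 fold change was -0.0057, compared with 0.0059 over all genes tested. With library size as the only scaling the median of the members was 0.027 and that of all genes 0.040.

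**Figure D1:**
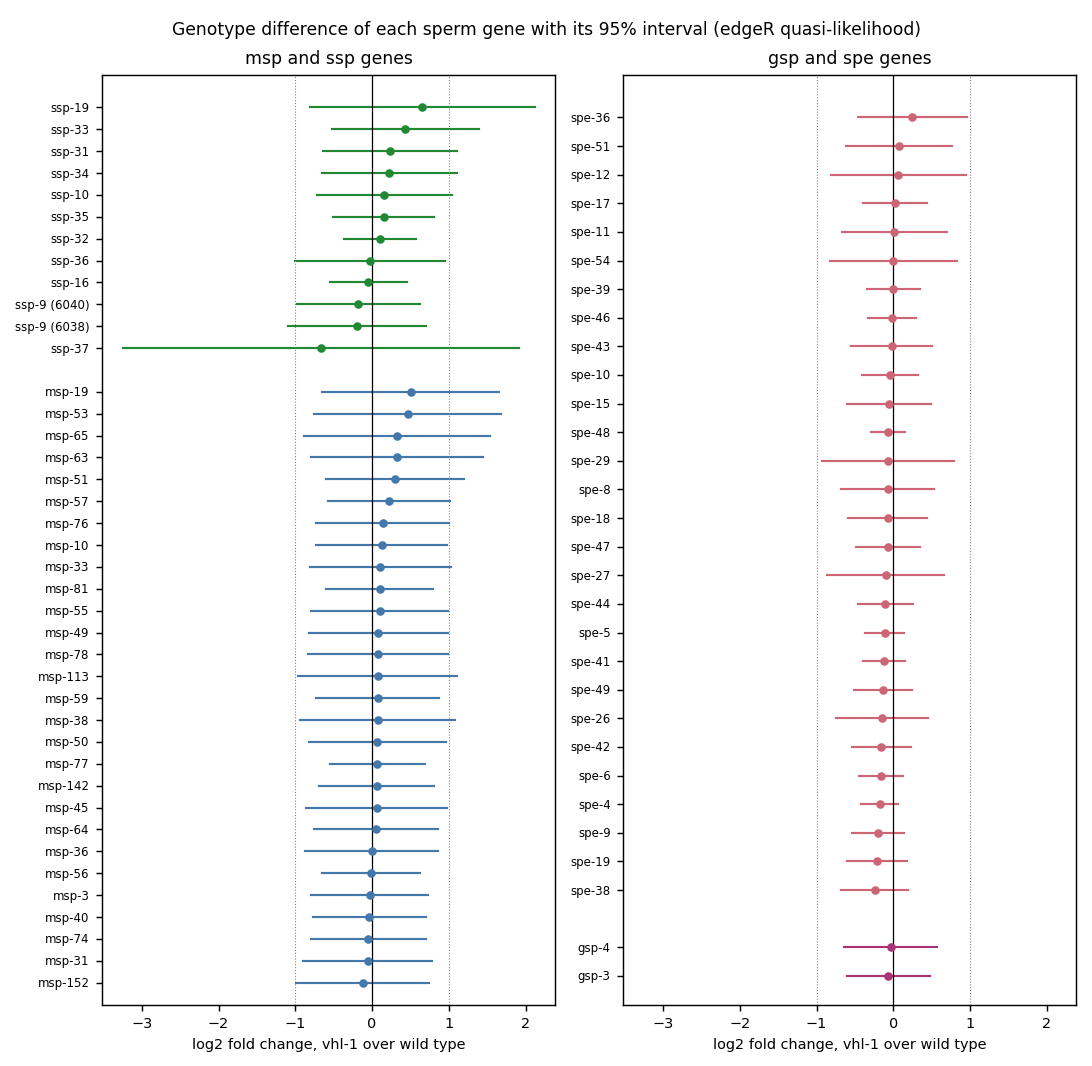
Log2 fold change (*vhl-1* over wild type) of 70 of the 71 sperm genes on the x axis, with its 95% interval from edgeR's quasi-likelihood fit over 3 libraries per genotype. Genes are sorted by their change within a family, dotted lines mark a change of 1 in either direction, and every interval includes 0.

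How small a difference these libraries could still hide varied with the family. The 95% interval of the log2 fold change included 0 for 71 of 71 members. It lay inside ±1 for 29 of the 29 *spe* genes and both *gsp* genes, but only for 18 of 28 *msp* and 5 of 12 *ssp* genes. A change of 1.5-fold in either direction lay outside the interval for 16 *spe* and 2 *ssp* genes and for 0 of 28 *msp* genes. The median standard error (SE) of a log2 fold change was 0.17 for *spe*, 0.36 for *msp* and 0.37 for *ssp* genes, compared with 0.20 over all genes tested. Each member had between 479 and 43113 reads over the 6 libraries. The spread between replicates differed among the families in the same order, with a median SD on the log2 scale of 0.58 for *msp*, 0.58 for *ssp* and 0.20 for *spe* genes, beside 0.24 for all genes tested.

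The *msp* genes were examined first as a sum, which does not change when reads are moved among these copies. Reads dropped for fitting several copies would be missing from the sum too, and whether they were dropped is not known. Together the 28 genes had 1070, 762 and 596 CPM in the wild type libraries and 1095, 474 and 946 CPM in the *vhl-1* libraries. The highest and the lowest of all 6 values were both from *vhl-1* mutants, and the wild type values lay between them. The means were 809 ± 240 and 839 ± 324 CPM (SD, n = 3 each), a ratio of 1.04. No test was made on this sum. The ratio depended on single libraries, since it was 1.26 without the second *vhl-1* library, 1.24 without the first wild type library and 0.878 without the first *vhl-1* library. Replicates of wild type animals spanned 1.80-fold and those of *vhl-1* mutants 2.31-fold. In whole animals, fewer sperm or spermatocytes and less *msp* mRNA per cell cannot be told apart.

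**Figure D2:**
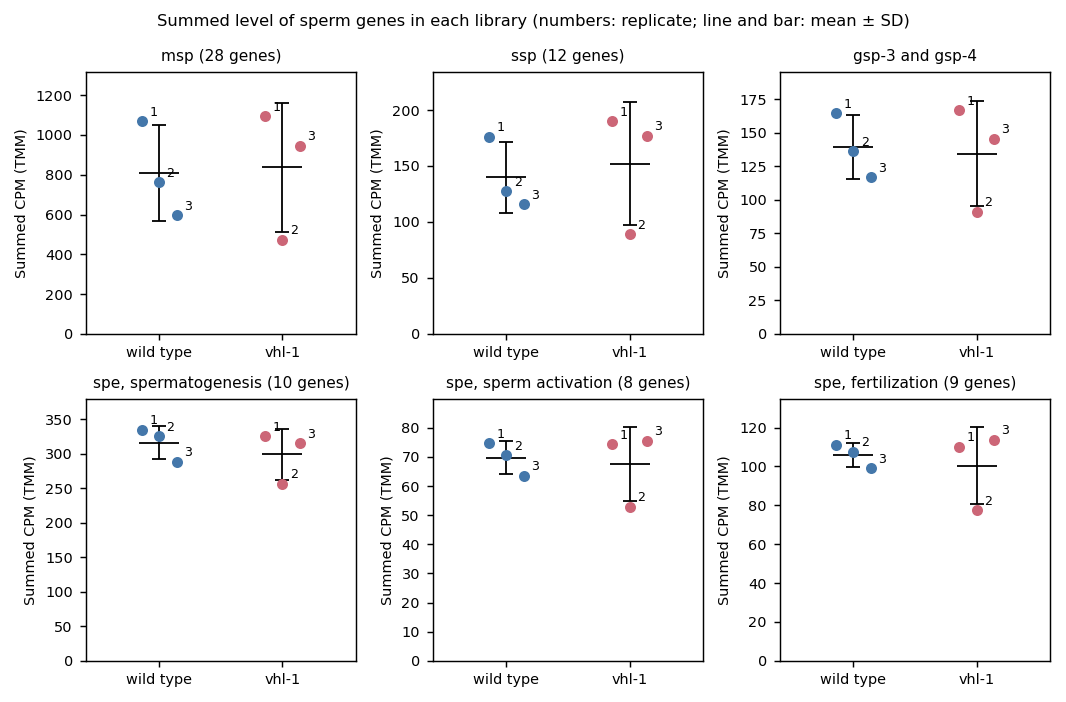
Summed CPM (y axis, from 0) of 6 groups of sperm genes in wild type animals and *vhl-1* mutants, 1 point per library with its replicate number, and the mean ± SD of 3 libraries. The genotypes overlap in all 6 panels, and *vhl-1* library 2 is the lowest point of each.

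Single *msp* genes followed the sum. The copy with the highest level was *msp-40*, at 187 CPM per kb over all libraries. Its values were 94.4, 69.1 and 54.7 CPM in wild type animals and 90.3, 43.6 and 78.8 CPM in *vhl-1* mutants. The first library of each genotype was high and the second *vhl-1* library low. The log2 fold change of *msp-40* was -0.04 (SE 0.31, edgeR adjusted p = 1.00). *msp-31*, the next in level, had 94.7, 64.7 and 49.1 CPM in wild type animals and 87.5, 38.5 and 74.5 CPM in *vhl-1* mutants. It repeated the order of the libraries seen for *msp-40*, and its log2 fold change was -0.06 (SE 0.35). Over the 28 genes the log2 fold change lay between -0.12 (*msp-152*) and 0.50 (*msp-19*), 21 were above and 7 below 0, and the median was 0.07. The median kept its sign under every scaling tried, but was -0.0029 in limma-voom and between -0.17 and 0.36 in fits without any 1 of the libraries.

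The 3 *msp* genes with the highest values of the change were copies with few reads. *msp-19* had 2.33, 1.18 and 1.48 CPM in wild type animals and 3.65, 1.04 and 2.40 CPM in *vhl-1* mutants. *msp-53* had 2.29, 1.47 and 1.59 CPM in wild type animals and 3.13, 0.848 and 3.42 CPM in *vhl-1* mutants. In both genes 2 of the 3 *vhl-1* libraries lay above all wild type libraries while the second lay below them. The log2 fold changes were 0.50 (SE 0.48, edgeR adjusted p = 0.93) and 0.46 (SE 0.51, edgeR adjusted p = 0.95). *msp-65* was at 7.26, 4.03 and 3.25 CPM in wild type animals and at 7.80, 2.42 and 8.08 CPM in *vhl-1* mutants. Here the log2 fold change of 0.33 had an SE of 0.51. Without the second *vhl-1* library, *msp-53*, *msp-63* and *ssp-19* had an unadjusted p under 0.05, but the lowest adjusted p of any member was then 0.29.

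The *msp* copies are nearly identical, and how far reads of this kind can separate them was not measured. In the Ensembl release 115 annotation of WBcel235, each of the 28 genes has 1 exon. The coding length is 381 bases, or 127 codons, in 27 of them, and 231 bases, or 77 codons, in *msp-74*. For all 28 *msp* genes and 9 *ssp* genes the annotated exon ends with the stop codon, so that reads could be assigned only within the coding part. Reads were single-end and 50 bases long. The sources used here do not give how reads that fit several copies were treated, and whether they were dropped, placed at random or divided changes the level of a copy. Therefore the level of a single *msp* gene is uncertain, and so is the order of the copies. The annotation places the genes in 7 clusters with gaps of at most 100 kb. On chromosome II they lie at 4785898 to 4933410 (5 genes), 5115102 to 5200180 (4 genes) and 5797065 to 5810330 (3 genes). On chromosome IV they lie at 5055631 to 5065061 (3 genes), 5260589 to 5316906 (5 genes), 9689015 to 9895014 (6 genes) and 10095433 to 10143740 (2 genes).

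As counted, the copies differed 35.6-fold in level, from 5.25 CPM per kb for *msp-19* to 187 CPM per kb for *msp-40*. A gap of 1.56-fold separated 20 copies at 30.9 CPM per kb or more from 8 copies at 19.9 CPM per kb or less. The 8 low copies (*msp-10*, *msp-19*, *msp-53*, *msp-63*, *msp-65*, *msp-74*, *msp-77* and *msp-113*) held 3.19% of the *msp* reads, with 69 to 658 reads per library. The 4 highest copies, *msp-40*, *msp-31*, *msp-64* and *msp-76*, held 32.2%. Among the libraries *msp-40* ranged over 2.17-fold and *msp-31* over 2.46-fold, in much the same order. Compared within a library, *msp-31* exceeded *msp-40* only in the first wild type library, at 94.7 against 94.4 CPM. The 12 genes on chromosome II had a median of 105 CPM per kb and the 16 on chromosome IV a median of 41.9 CPM per kb. The median log2 fold change was 0.22 in the 8 low copies and 0.07 in the other 20.

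**Figure D3:**
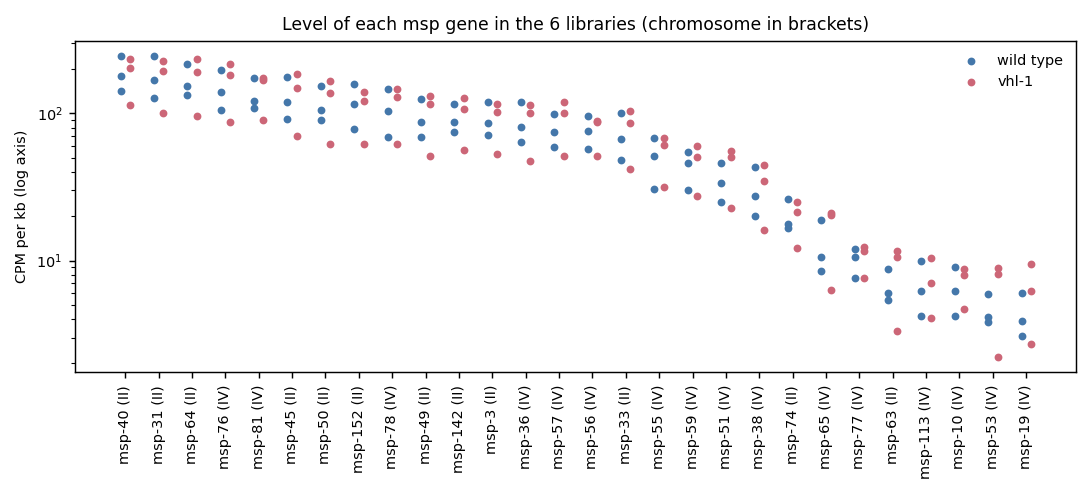
Level of each of the 28 *msp* genes in CPM per kb (y axis, log scale), 1 point per library, with genes in order of their mean level and their chromosome in brackets. The genotypes overlap in every gene, and the mean levels fall from 187 CPM per kb for *msp-40* to 5.25 for *msp-19*.

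The share that each copy took of all *msp* reads was more even among libraries than its level. For *msp-40* the share was 8.80% on average and lay between 8.24% and 9.19%. Its coefficient of variation over the 6 libraries was 4.82%, against 27.8% for its CPM. In the 20 higher copies the coefficient of variation was between 3.33% and 9.85% for the share and between 23.8% and 38% for CPM. It was smaller for the share in 27 of the 28 copies. The exception was the short gene *msp-74*, whose share varied by 37.9% and whose CPM varied by 26.8%. *msp-74* was highest in the third wild type library, at 6.16 CPM, where the family as a whole was low. Copies that exchange reads in counting share their variation, so the even shares do not show that the copies were transcribed together.

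The read minimum left out *msp-32*, *msp-58* and *msp-79*. *msp-79* was just below it, with 12, 6 and 5 reads in wild type animals and 13, 6 and 3 reads in *vhl-1* mutants. *msp-32* reached at most 7 reads and *msp-58* at most 3 reads in a library. Whether these reads came from the 3 genes or from other copies was not tested. On the other side of the minimum, the member with the fewest reads was *ssp-37*.

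The *ssp* genes spread like the *msp* genes. Their sum was 176, 127 and 116 CPM in wild type animals and 190, 89.0 and 177 CPM in *vhl-1* mutants. The second *vhl-1* library was again the lowest and the first *vhl-1* library the highest. The means were 140 ± 32.1 and 152 ± 54.9 CPM (SD, n = 3 each). Of the 12 genes, 7 were above and 5 below 0 in log2 fold change, with a median of 0.13 and a range from -0.67 to 0.65. *ssp-10* and *ssp-16* had the highest levels, at 97.7 and 92.2 CPM per kb. *ssp-10* had 42.3, 27.2 and 21.9 CPM in wild type animals and 44, 18.7 and 39.3 CPM in *vhl-1* mutants. *ssp-16* was more even, with 30.4, 28.1 and 34.4 CPM in wild type animals and 32.0, 21.1 and 36.7 CPM in *vhl-1* mutants. Their log2 fold changes were 0.16 (SE 0.37) and -0.05 (SE 0.21).

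Both ends of the *ssp* range were genes with large spread. *ssp-19* was at 5.75, 3.47 and 2.05 CPM in wild type animals and at 9.42, 1.88 and 6.48 CPM in *vhl-1* mutants. The first and the third *vhl-1* library lay above all wild type libraries and the second lay below them, and the log2 fold change was 0.65 (SE 0.61, edgeR adjusted p = 0.92). *ssp-33* had 5.44, 4.55 and 2.85 CPM in wild type animals and 8.26, 3.10 and 6.04 CPM in *vhl-1* mutants, with a log2 fold change of 0.43 (SE 0.40, edgeR adjusted p = 0.92). *ssp-37* had 234, 27 and 26 reads in wild type animals and 134, 6 and 52 reads in *vhl-1* mutants. Its libraries ranged over 40.4-fold, and the first of each genotype carried most of the reads. Its log2 fold change of -0.67 (95% interval -3.25 to 1.92) became 0.81 without the first wild type library. At the other extreme, *ssp-32* kept between 1.07 and 1.34 CPM and was the most even *ssp* gene, at 1.25-fold from lowest to highest. The symbol *ssp-9* belongs to 2 gene identifiers of equal coding length, WBGene00006038 and WBGene00006040. The former had 8.76, 6.43 and 4.15 CPM in wild type animals and 6.76, 3.26 and 6.90 CPM in *vhl-1* mutants, with overlapping genotypes and a log2 fold change of -0.20 (SE 0.38, edgeR adjusted p = 1.00). The latter had a log2 fold change of -0.18, and reads may be exchanged between them.

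*gsp-3* and *gsp-4*, both on chromosome I with 915 coding bases each, are also a pair of very similar genes. *gsp-3* had 90.7, 77.0 and 66.6 CPM in wild type animals and 91.9, 51.5 and 80.7 CPM in *vhl-1* mutants. *gsp-4* had 73.7, 59.3 and 50.4 CPM in wild type animals and 74.9, 39.6 and 64.9 CPM in *vhl-1* mutants. Both were highest in the first *vhl-1* library and lowest in the second, and *gsp-3* had 1.23 to 1.32 reads for each read of *gsp-4* in every library. The log2 fold changes were -0.06 (SE 0.23) and -0.03 (SE 0.25), and the latter was 0.0021 with library size as the only scaling. The somatic and germline phosphatases *gsp-1* and *gsp-2*, paralogs that are not restricted to sperm, varied by 1.07-fold in their summed CPM over the 6 libraries, against 1.83-fold for *gsp-3* and *gsp-4*.

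The *spe* genes differed less between replicates than the structural sperm genes. Their sum was 655, 620 and 552 CPM in wild type animals and 647, 463 and 628 CPM in *vhl-1* mutants. The second *vhl-1* library was low once more, but the range was 1.42-fold where it was 2.31-fold for the *msp* genes. The means were 609 ± 52.1 and 579 ± 102 CPM (SD, n = 3 each). Of the 29 genes, 23 were below and 6 above 0 in log2 fold change, with a median of -0.07 and a range from -0.24 to 0.25. None of these differences passed the threshold in the edgeR test, and the median was 0.073 without the second *vhl-1* library. It was below 0 under every scaling tried.

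Among the genes of spermatocyte and spermatid building, *spe-15*, which encodes a myosin of class VI that sorts components into spermatids, had the highest level. It was at 121, 109 and 81.4 CPM in wild type animals and at 120, 71.5 and 109 CPM in *vhl-1* mutants. Both genotypes overlapped, and the log2 fold change was -0.05 (SE 0.23). *spe-4* had 33.0, 37.6 and 36.1 CPM in wild type animals and 32.0, 29 and 33.6 CPM in *vhl-1* mutants. Only the first wild type library of *spe-4* fell among the mutant values, and its log2 fold change was -0.17 (SE 0.10, edgeR adjusted p = 0.77). *spe-44*, a transcription factor that switches on many sperm genes in spermatocytes, had 24.4, 29.8 and 33.9 CPM in wild type animals and 24.5, 30.6 and 27 CPM in *vhl-1* mutants. Its lowest values were in the first library of each genotype, where the *msp* genes were highest. *spe-48* was the most even of all members, with 27.5, 25.8 and 25.5 CPM in wild type animals and 24.1, 26.4 and 24.7 CPM in *vhl-1* mutants, or 1.14-fold from lowest to highest. In this group 8 of 10 genes varied by less than 1.5-fold over the libraries. *spe-5*, a V-ATPase subunit, varied by 1.19-fold, *spe-6*, a casein kinase, by 1.30-fold, and *spe-26*, a kelch-related protein, by 1.90-fold. *spe-5* shares exonic bases with *ift-20* on the opposite strand.

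The 8 genes of sperm activation summed to 74.8, 70.7 and 63.6 CPM in wild type animals and 74.5, 52.9 and 75.5 CPM in *vhl-1* mutants. *spe-46* and *spe-47*, whose mutants activate spermatids too early, had the highest levels per kb. *spe-46* had 35.3, 35.5 and 31.3 CPM in wild type animals and 35.8, 28.1 and 36.9 CPM in *vhl-1* mutants. *spe-47* had 10.5, 11.2 and 9.67 CPM in wild type animals and 11.1, 7.83 and 10.9 CPM in *vhl-1* mutants. Apart from the low second *vhl-1* library, both genes were nearly level, with log2 fold changes of -0.02 (SE 0.13, and 0.015 with library size as the only scaling) and -0.07 (SE 0.17). *spe-8*, a tyrosine kinase that relays the activation signal, had a log2 fold change of -0.07, and *spe-12*, *spe-27*, *spe-29* and *spe-43*, which act with it, lay between -0.10 and 0.07. *spe-19*, the remaining gene of this pathway, had the lowest change of the group. It had 4.43, 4.39 and 4.21 CPM in wild type animals and 3.64, 3.28 and 4.33 CPM in *vhl-1* mutants, and the log2 fold change was -0.21 (SE 0.16, edgeR adjusted p = 0.88). *spe-29* departed from the order of the other genes and was highest in the third wild type library (1.85 CPM) and the third *vhl-1* library (1.69 CPM). Of its 343 exonic bases, 117 overlap *gon-1* on the opposite strand, and without a known strand setting the reads of both cannot be separated.

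The 9 genes of fertilization and egg activation had 111, 107 and 99.0 CPM in wild type animals and 110, 77.4 and 114 CPM in *vhl-1* mutants. *spe-11*, a paternal factor that the sperm brings into the egg, was at 46.3, 35.8 and 30.7 CPM in wild type animals and at 46, 23.1 and 44.7 CPM in *vhl-1* mutants. This order resembled that of the *msp* genes, and the log2 fold change was 0.01 (SE 0.29). *spe-41*, a TRPC channel of the sperm surface also known as *trp-3*, was more even, with 34.5, 37.8 and 35.6 CPM in wild type animals and 34.8, 28.3 and 35.9 CPM in *vhl-1* mutants. The resulting log2 fold change was -0.12 (SE 0.12). *spe-9*, an EGF-repeat protein of the sperm surface, was the only member whose genotypes did not overlap. It had 7.15, 7.22 and 7.22 CPM in wild type animals and 6.83, 5.42 and 6.57 CPM in *vhl-1* mutants. The 3 wild type libraries lay close together above the mutants, but the log2 fold change of -0.20 (SE 0.14) did not pass the threshold (edgeR adjusted p = 0.86). *spe-38*, a tetraspan membrane protein, had 2.31, 2.46 and 2.03 CPM in wild type animals and 1.83, 1.82 and 2.13 CPM in *vhl-1* mutants, with a log2 fold change of -0.24 (SE 0.18, edgeR adjusted p = 0.88). *spe-9* shares 8 exonic bases with *C17D12.5* on the opposite strand, and *spe-38* overlaps *impt-1* on the same strand. The log2 fold changes of *spe-36*, *spe-42*, *spe-49* and *spe-51*, which also act in fertilization, lay between -0.15 and 0.25.

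*spe-18* and *spe-54* had been put in no role group. *spe-18*, which is needed for MSP to assemble in the fibrous bodies of spermatocytes, had the highest level per kb of all *spe* genes, at 79.8 CPM per kb. It had 113, 99.4 and 89.9 CPM in wild type animals and 116, 66.1 and 105 CPM in *vhl-1* mutants. Like the *msp* genes it was high in both first libraries and low in the second *vhl-1* library, with a log2 fold change of -0.07 (SE 0.21). *spe-54* had 21.7, 16.6 and 11.7 CPM in wild type animals and 21.6, 9.63 and 18.9 CPM in *vhl-1* mutants. The resulting log2 fold change was 0.00042 in the edgeR fit and -0.0063 in DESeq2.

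A common order of the libraries ran through most members. The second *vhl-1* library was the lowest of the 6 for 59 of 71 members (83.1%), compared with 25.4% of all genes tested. The highest value was in the first *vhl-1* library for 30 members and in the first wild type library for 21, together 71.8%, compared with 35.1% of all genes tested. The extent of these differences set the families apart. The highest library exceeded the lowest by a median of 2.45-fold for *msp*, 2.39-fold for *ssp* and 1.39-fold for *spe* genes, and by 1.62-fold over all genes tested. Of the 28 *msp* genes 0 stayed under 1.5-fold, while 16 of 29 *spe* genes did, beside 41.6% of all genes tested. The summed CPM of the spermatocyte and spermatid group was 0.313, 0.427 and 0.484 of the *msp* sum in wild type animals and 0.297, 0.541 and 0.333 of it in *vhl-1* mutants. No member lies on the X chromosome, which holds 14.1% of the genes tested. Chromosome IV, with 17.1% of the genes tested, holds 31 of the 71 members, of which 16 are the clustered *msp* genes.

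**Figure D4:**
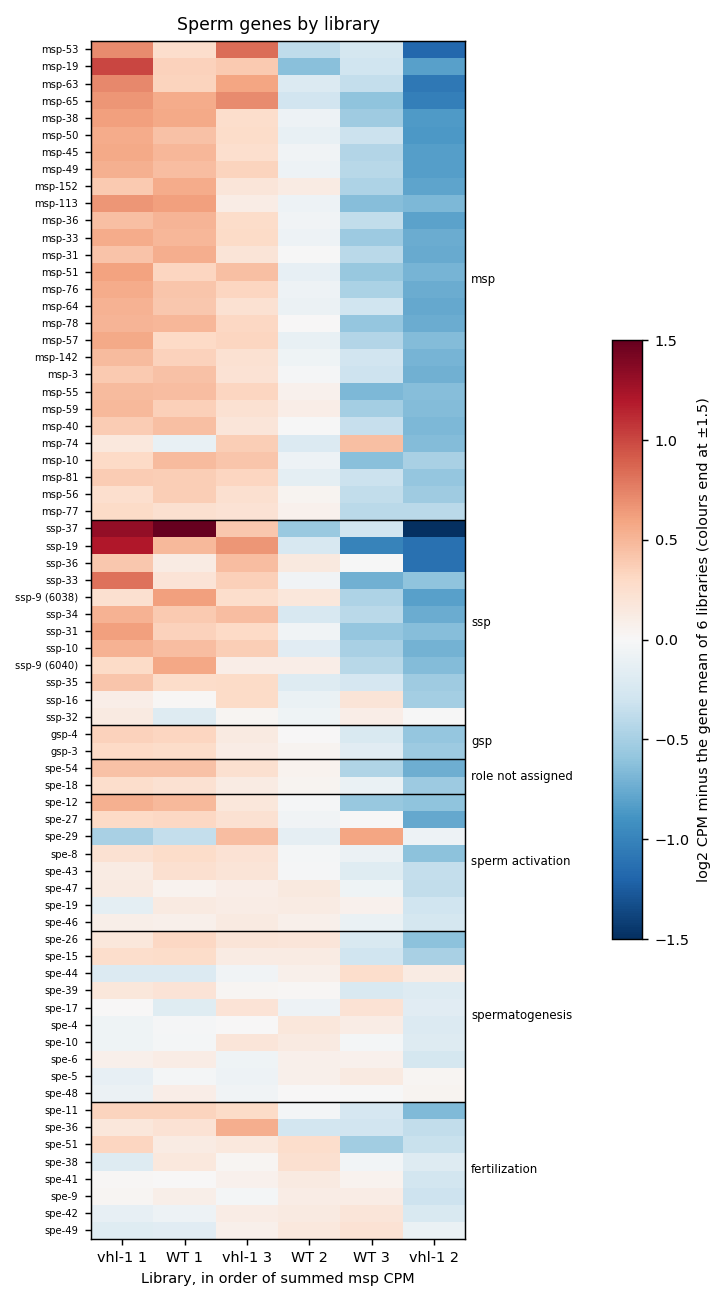
Heat map of 70 of the 71 sperm genes (rows, by family and role) in the 6 libraries (columns, ordered by summed *msp* CPM), with color for log2 CPM minus the mean of the gene over the libraries. Most *msp* and *ssp* rows, but not those of *msp-74* and *ssp-32*, turn from red in *vhl-1* library 1 and wild type library 1 to blue in *vhl-1* library 2. The rows of spermatogenesis genes are paler.

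Genes of other stages and cells differed among the same libraries. The oocyte list held 19 genes chosen for the oocyte side of sperm signalling, not all of which act in that signal. It summed to 2253, 1435 and 1081 CPM in wild type animals and 2052, 940 and 1554 CPM in *vhl-1* mutants. This sum had nearly the order of the *msp* sums, with the second *vhl-1* library lowest, but not every gene followed it. *cbd-1* ranged over 4.19-fold, *kin-1* over 1.16-fold and *mbk-2* over 1.15-fold, and *vab-1* was highest in the second *vhl-1* library, at 75.1 CPM. In edgeR, DESeq2 or limma-voom 0 of the 19 genes passed the threshold, beside 1.25% of all genes tested in edgeR and 3.54% in DESeq2. The adult cuticle collagens *col-19* and *col-7* summed to 1259, 294 and 311 CPM in wild type animals and 737, 31.8 and 329 CPM in *vhl-1* mutants, a range of 39.6-fold. The 6 yolk genes summed to 17318, 5681 and 4878 CPM in wild type animals and 6352, 795 and 3213 CPM in *vhl-1* mutants. In this list the genotypes stood further apart, with 6 of 6 genes below 0 in log2 fold change and a median of -1.76. *vit-1*, *vit-3* and *vit-4* did not overlap between the genotypes and had an unadjusted p under 0.05 in edgeR. Of all genes tested, 14.4% did not overlap and 9.38% had such a p. The threshold was passed by 0 of 6 yolk genes in edgeR or limma-voom. In DESeq2 1 of them, *vit-1*, passed it, beside 3.54% of all genes tested. The 7 genes of the last larval molt summed to 1600, 3248 and 4173 CPM in wild type animals and 3182, 2974 and 3257 CPM in *vhl-1* mutants, with the first wild type library low and the third high. Genes that direct germ cells to become sperm had no common order. The summed CPM of *fog-1* and *fog-3*, a pair picked after its values had been seen, was 13.7, 16.5 and 16.5 in wild type animals and 12.3, 33.4 and 13.6 in *vhl-1* mutants, highest where the *msp* sum was lowest. *fem-3*, from the same list, was lowest in that library, at 9.48 CPM, and *fem-1* varied by 1.09-fold over the libraries. The part of developmental stage in the levels of the sperm genes was not tested.

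**Figure D5:**
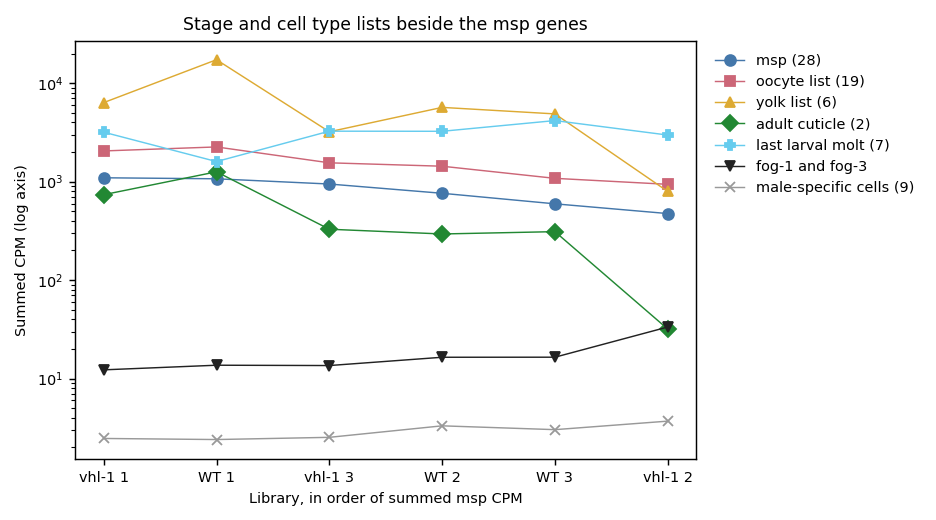
Summed CPM (y axis, log scale) of the *msp* genes and of 6 lists of other genes in the 6 libraries, which are ordered by their summed *msp* CPM on the x axis; lines only join the points of a list. The adult cuticle list ranges over 39.6-fold and the *msp* genes over 2.31-fold, while *fog-1* and *fog-3* together are highest, at 33.4 CPM, where the *msp* sum is lowest.

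Males, which make sperm throughout adulthood, would add sperm transcripts if they were present. The 9 genes of male-specific cells summed to between 2.40 and 3.31 CPM in wild type animals and between 2.47 and 3.70 CPM in *vhl-1* mutants. The sum was highest in the second *vhl-1* library, with *cwp-4* at 1.54 CPM as its largest part. Single genes had no common order. *lov-1*, *pkd-2*, *cwp-2* and *cwp-4* were highest in that library, *cwp-1* in the third *vhl-1* library, and *cwp-5*, *plg-1* and *try-5* in wild type libraries. In reads, *cwp-3* had 0 in every library, *cwp-1* at most 3, *cwp-2* at most 4, *lov-1* at most 10 and *pkd-2* at most 24, all from male sensory neurons. The others had more, with 52 to 125 reads per library for *cwp-4*, 13 to 45 for *cwp-5*, 40 to 72 for *plg-1* and 19 to 40 for *try-5*. The part of males in the levels of the sperm genes was not tested.

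Of 26 listed spermatogenesis genes with other names 24 were found by symbol. The symbols not found were *fer-14* and *trp-3*, and the latter is the member *spe-41*. Of the 24 genes found, 0 passed the threshold in edgeR or limma-voom. In DESeq2 1 of them, *swm-1*, passed it, beside 3.54% of all genes tested. Their sum was 1598, 1283 and 1016 CPM in wild type animals and 1626, 908 and 1369 CPM in *vhl-1* mutants, again with the second *vhl-1* library lowest. This library was the lowest for 16 of the 24 genes, but the highest for 5, namely *fog-1*, *fog-3*, *fem-1*, *cpb-1* and *swm-1*. The highest levels per kb were those of *spch-1*, which encodes a sperm chromatin protein, and of *ssq-1*, *ssq-2* and *spch-3*, whose log2 fold changes lay between -0.13 and -0.01. *swm-1*, an inhibitor of proteases that keeps sperm from activating too early in males, stood apart with 13.1, 16.6 and 17.9 CPM in wild type animals and 29.1, 44.8 and 32.8 CPM in *vhl-1* mutants. All 3 mutant libraries lay above all wild type libraries, and *swm-1* was singled out after its values had been seen. The log2 fold change of 1.16 (SE 0.20) missed the threshold in edgeR (adjusted p = 0.058) and passed it in DESeq2 (adjusted p = 3.93e-05). The call also changed within edgeR, where the adjusted p was 0.024 with a replicate block, 0.040 with library size as the only scaling and 0.031 without the filter. Over all alternatives the adjusted p of *swm-1* lay between 3.99e-08 and 0.24.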

How the data were processed

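Total RNA of 6 samples was extracted, and mRNA was sequenced as single-end reads of 50 bases. According to the study's methods and processing notes, the authors checked reads with FastQC (0.71), trimmed them with Trim Galore (0.4.3.1), aligned them with STAR (2.6.0b) and counted them per gene with featureCounts (1.6.3). They deposited raw counts for each library, without normalization. The genome build, the strand setting and the treatment of reads that fit several genes are not given in the sources used here. The deposited counts list 46778 gene identifiers and 1 blank row per library without reads. Symbols and positions were taken from Ensembl release 115 (WBcel235), in which 46603 identifiers were found, the others holding 0.0773% of reads.

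The test was run with edgeR 4.0.16 in R 4.3.3 (filterByExpr, TMM, quasi-likelihood test on genotype, Benjamini-Hochberg adjustment over 16596 genes, threshold 0.05). The SE of a log2 fold change was derived from its size and the F statistic of its test. All 71 members passed the filter. Alternatives were DESeq2 1.42.0, limma 3.58.1 (voom), other scalings and filters, a term for the replicate number, each library left out in turn, and the members whose exons overlap no other gene, the last chosen after the data were seen. No list, sum or score over members was tested. The members and lists were chosen with earlier results of these data known.

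The genes named with all values were *vhl-1*, the 5 members with the highest and the 5 with the lowest log2 fold change, *gsp-3* and *gsp-4*, and the 2 members of highest CPM per kb in the *msp* and *ssp* families and in each role group of *spe* genes. Other genes were named after their values were seen. The values of 1 member are not reported here by themselves and enter only counts, medians and sums. Further steps based on the share of each transcript that is unique to it needed transcript sequences, which were not used here.

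On simulated counts edgeR recovered 100% of 200 genes changed by 2 on the log2 scale among 16450 genes, with 5.21% of its calls false. The simulation gave all genes the same spread beyond sampling noise and no shared order of libraries, and changed only genes above a read minimum. It therefore checks the code and does not give the power for the *msp* and *ssp* genes, whose replicates spread more widely. Replicates were not duplicates, as the chi-square of their counts, averaged over genes, was 45.8 or more for each pair of replicates. Sampling noise gives about 1. They were labelled as biological replicates, and p-values measure the spread between these 3 libraries of each genotype.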

Additional observations from a re-analysis of the deposited data

How the results depend on the processing

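The count of members past the threshold was 0 in every setting run. The number of all genes past it moved from 207 to 654 with DESeq2 and lay between 49 (without the second wild type library) and 161 with a library left out. No other setting without a replicate term changed it by more than 1.5-fold.

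The replicate numbers were not taken as pairs, since libraries of the same number deviated together with a correlation of 0.55 and 0.44, but of -0.016 for the third number. The third wild type library correlated best with the second *vhl-1* library, at 0.23. With a replicate block, 354 genes passed in edgeR and 901 in DESeq2, with 0 members, and *spe-54* became -0.036 and -0.045 and *spe-11* -0.032 and -0.042.

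Of 348 values of the 25 named genes under the alternatives, 307 kept their direction and side of the threshold and 41 changed sign, 31 of them with a library left out. *spe-54* was -0.0063 with DESeq2, -0.078 with limma-voom and -0.0050 with the size factors of DESeq2 in edgeR. *spe-11* was -0.069 with limma-voom. With library size alone *gsp-4* was 0.0021 and *spe-46* 0.015, and 41 members in place of 34 were above 0. With a library left out, the log2 fold change ranged from -0.24 to 0.14 for *gsp-3*, -0.23 to 0.19 for *gsp-4*, -0.30 to 0.23 for *msp-31*, -0.25 to 0.22 for *msp-40*, -0.15 to 0.27 for *spe-11*, -0.20 to 0.14 for *spe-15*, -0.24 to 0.14 for *spe-18*, -0.091 to 0.094 for *spe-46*, -0.16 to 0.073 for *spe-47*, -0.23 to 0.28 for *spe-54*, -0.071 to 0.47 for *ssp-10*, -0.22 to 0.15 for *ssp-16*, -1.57 to 0.81 for *ssp-37* and -0.43 to 0.088 for *ssp-9* (WBGene00006038). The causes were not tested.

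The planned sums over near-identical copies and the members with mostly unique sequence were not run. By their medians, both the SE and the spread between replicates were larger for *msp* and *ssp* than for *spe* genes.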
